A study of Mus musculus with 12 samples.

Results

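The astroglial and radial glial genes Glul, Slc1a3, Slc1a2, Apoe, Gfap, S100b, Vim, Nes, Fabp7 and Prom1 were followed on expression arrays of immortalised mouse striatal cells. All probes annotated to these 10 symbols were taken, 18 of the 44505 probes and 10 of the 17056 named genes on the array. The cells came from homozygous knock-in mice with 7 (Hdh7/7) or 109 (Hdh109/109) CAG repeats in the Hdh allele, the mouse huntingtin gene, and serve as a cell model of Huntington's disease. Each line was left untransfected, carried an empty vector, or carried the construct DNRest, which gave 6 groups of 2 arrays. DNRest is a dominant-negative form of REST in the study, although the labels give only its name. All cells were cultured at 33°C and 5% CO2 in DMEM containing 10% fetal calf serum. Since each genotype was represented by 1 line, an effect of the repeats and any other difference between the lines cannot be told apart. The labels do not say whether transfection was transient or stable, and the replicates are called biological without a statement of separate cultures, so the p-values cover no more than the spread of these arrays, part of which may be technical.

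Radial glia are the progenitors of the developing forebrain, and they carry the intermediate filament proteins nestin and vimentin, the fatty acid binding protein Fabp7 and the surface protein prominin-1. Astrocytes arise from them and keep part of this programme, clearing glutamate through the transporters Slc1a3 (GLAST) and Slc1a2 (GLT-1), converting it to glutamine with glutamine synthetase (Glul), and secreting apolipoprotein E as a lipid carrier. Gfap and S100b are the usual markers of mature astrocytes. REST is a zinc finger repressor that keeps neuronal genes off outside neurons by binding the RE1 element.

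The arrays detected 10295 to 14370 probes each, at a detection p under 0.01. Correlations across probes were 0.979 to 0.994 within groups and 0.938 to 0.964 between the lines. Hdh7/7 empty vector replicate 2 and Hdh109/109 untransfected replicate 2 stood apart, with median raw signals of 161.13 and 156.08 against 70.2 to 104 on the other 10 arrays. For 6 of the 12 arrays the source name gave the other genotype than the title, and the title was followed because it matched the genotype field. The Htt probe, a check on the lines, was detected on 5 of 6 Hdh7/7 arrays and on 0 of 6 Hdh109/109 arrays, with mean log2 signals of 6.83 and 5.15. The Rest probe was undetected on all 12 arrays, between 4.49 and 4.97. A marker check found 2 of 10 neuronal markers, 2 of 9 oligodendrocyte lineage markers, 0 of 9 microglial markers, 1 of 7 endothelial markers, 1 of 6 ependymal markers and 8 of 10 mesenchymal markers detected on enough arrays to be tested. In such bulk RNA, fewer cells of a type and less RNA per cell cannot be told apart.

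The promoter windows of Slc1a3, Nes and Prom1 are given as examples of members that differed between the groups, for Prom1 by 1 probe only. They come from RefSeq on GRCm38.p6 and cover 250 bases before to 50 bases after the gene start, written 5′ to 3′ on the gene's strand. Capitals mark matches on either strand to GGGCGG (GC box), TATAAA (the core element bound by TBP), CCAAT (bound by NF-Y), ACAAAG (a SOX core), CAGCACC and GGACAGC (parts of the RE1 element) and TTCNNNGAA (a STAT, or GAS, element). CANNTG (E-box) was counted but not capitalised. The Slc1a3 window lies at chr15:8710758-8711057 on the minus strand, the Nes window at chr3:87970843-87971142 on the plus strand, and the first of 2 Prom1 windows at chr5:44101687-44101986 on the minus strand.
Slc1a3: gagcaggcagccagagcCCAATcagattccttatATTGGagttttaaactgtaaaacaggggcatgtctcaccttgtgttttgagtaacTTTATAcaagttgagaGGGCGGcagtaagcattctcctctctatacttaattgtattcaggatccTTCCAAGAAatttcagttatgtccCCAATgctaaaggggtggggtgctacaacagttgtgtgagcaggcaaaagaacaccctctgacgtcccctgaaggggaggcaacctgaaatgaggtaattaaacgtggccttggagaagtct
Nes: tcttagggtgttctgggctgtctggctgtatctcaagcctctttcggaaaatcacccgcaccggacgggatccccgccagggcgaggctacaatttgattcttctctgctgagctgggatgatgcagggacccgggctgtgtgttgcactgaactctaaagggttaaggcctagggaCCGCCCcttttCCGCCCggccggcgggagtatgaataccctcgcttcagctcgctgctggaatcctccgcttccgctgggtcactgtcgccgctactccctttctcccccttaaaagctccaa
Prom1: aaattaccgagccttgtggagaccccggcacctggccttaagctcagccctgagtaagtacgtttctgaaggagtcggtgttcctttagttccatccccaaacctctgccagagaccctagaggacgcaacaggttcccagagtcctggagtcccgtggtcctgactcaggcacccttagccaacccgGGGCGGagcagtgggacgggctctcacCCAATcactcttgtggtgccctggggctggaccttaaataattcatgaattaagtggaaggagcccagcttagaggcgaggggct
The Slc1a3 window held 1 GC box, 1 TATAAA match, 3 CCAAT matches, 1 GAS element and 1 E-box. The Nes window held 2 GC boxes, and the Prom1 window held 1 GC box, 1 CCAAT match and 1 E-box. None of these 3 windows held either RE1 part or the SOX core, which says only that these letters are not in these windows. Of 32851 RefSeq windows of the same length, 35.7% held a GC box, 13.6% the TATAAA motif, 37.4% the CCAAT motif, 18.7% the SOX core, 7.14% and 6.56% the left and right RE1 parts, 8.3% a GAS element and 72.3% an E-box.

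The mature astrocyte markers Gfap and S100b, the glutamate transporter gene Slc1a2 and the radial glial gene Fabp7 were not detected in either line. Gfap, the astrocyte intermediate filament protein, had 2 probes with log2 signals of 4.57 to 5.21 and 4.52 to 4.90 over the 12 arrays. S100b, a calcium-binding protein of astrocytes, lay between 4.58 and 5.04, and Fabp7 between 4.44 and 4.62. Slc1a2, the main glutamate transporter of adult forebrain astrocytes, had 3 probes at 4.78 to 5.55, 4.68 to 4.97 and 4.54 to 4.84. All 7 probes of these 4 genes were undetected on all 12 arrays, where the lowest signal that counted as detected was 5.65 to 6.73. A signal in that range gives an upper limit and not an absence.

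The single Vim probe, for the intermediate filament protein vimentin, was detected on 1 array, Hdh7/7 untransfected replicate 1. Its log2 signal ran from 5.24 to 6.05 with a median of 5.65. This probe is annotated to a cDNA clone and not to a RefSeq transcript, and the sources used here do not say whether it reads the main vimentin transcript. The second Nes probe lay at 4.62 to 5.30, and Prom1 probes 1, 3 and 4 at 5.14 to 6.11, 4.56 to 4.82 and 4.55 to 4.82, all undetected. In all, 12 of the 18 probes were detected on fewer than 2 arrays and were not tested.

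**Figure D1:**
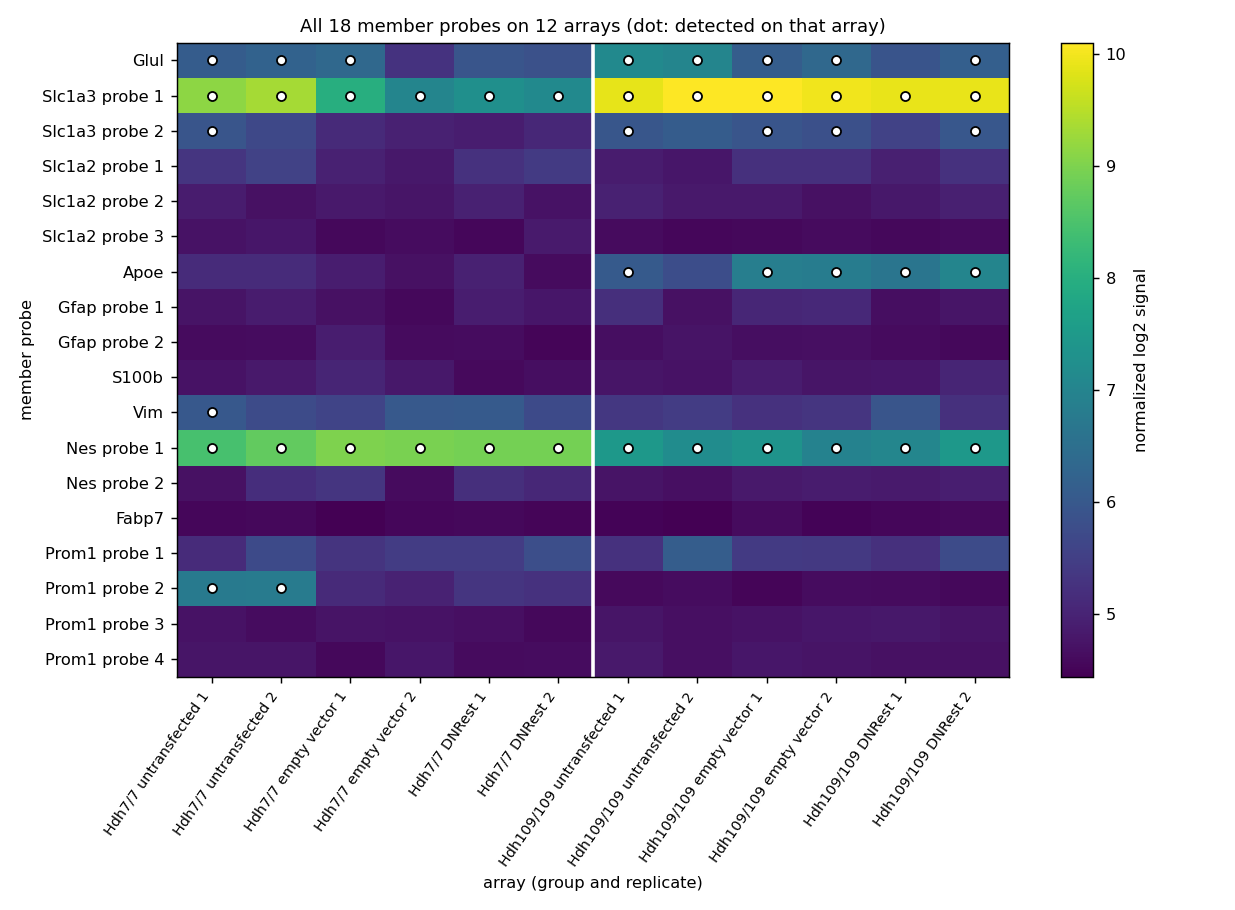
Normalized log2 signal (colour) of the 18 member probes (rows) on the 12 arrays (columns, by group and replicate), with a dot where a probe was detected. Slc1a3 probe 1 and Nes probe 1 are detected on all 12 arrays, Apoe on 5 Hdh109/109 arrays, Prom1 probe 2 on the 2 untransfected Hdh7/7 arrays, and the rows of Gfap, S100b, Slc1a2 and Fabp7 hold no dot.

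The tested members were Glul, Slc1a3, Apoe, Nes and Prom1, with 6 probes of the 15224 tested on the whole array. The members did not move as a group between the lines: Slc1a3, Glul and Apoe were higher in untransfected Hdh109/109 cells, and Nes and Prom1 were lower. Of the 6 probes, 5 passed (limma, adjusted p under 0.05), 3 higher and 2 lower, in a comparison where 35.6% of all tested probes passed, 17.6% higher and 18% lower. Apoe was detected in Hdh109/109 cells alone and Prom1 probe 2 in untransfected Hdh7/7 cells alone, so these probes were tested because of the group in which they were high. The members that could be tested are therefore read singly. Markers of mesenchymal cells moved with the line as well, 6 of the 8 tested being higher in Hdh109/109 cells on average over the 3 states, and their part in the members' line differences was not tested.

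Slc1a3, the glutamate transporter GLAST of radial glia and astrocytes, was well detected in both lines. The Hdh7/7 arrays of its probe 1 read, as log2 signal, 9.14 and 9.34 untransfected, 7.99 and 7.02 for the empty vector, and 7.26 and 7.13 for DNRest. The Hdh109/109 arrays read 9.89 and 10.10 untransfected, 10.09 and 9.99 for the empty vector, and 9.92 and 9.92 for DNRest. All 6 Hdh109/109 arrays thus lay above all 6 Hdh7/7 arrays, and the Hdh7/7 arrays spread over a wider range. The line difference was 1.69-fold without transfection (log2 0.75 ± 0.25 SE, adjusted p = 0.0426), 5.81-fold with empty vector (2.54 ± 0.25, adjusted p = 3.88e-05) and 6.63-fold with DNRest (2.73 ± 0.25, adjusted p = 2.48e-05). Of these, the untransfected difference did not pass with the replicate number as a block (adjusted p = 0.0512), without the detection filter (0.11), with median scaling (0.112), or with any 1 of the 10 arrays other than the Hdh7/7 empty-vector pair left out (adjusted p = 0.0548 to 0.189).

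Slc1a3 probe 2, annotated to a cDNA clone, was dim and detected on 1 Hdh7/7 and 4 Hdh109/109 arrays. Its log2 signal in Hdh7/7 cells was 5.94 and 5.66 untransfected, 5.11 and 4.97 for the empty vector, and 4.89 and 5.06 for DNRest. In Hdh109/109 cells the same states gave 5.95 and 6.09, 5.92 and 5.82, and 5.55 and 5.98. Like probe 1 it was higher in Hdh109/109 cells in both transfected states, with log2 differences of 0.83 ± 0.17 (adjusted p = 0.00339) for empty vector and 0.79 ± 0.17 (adjusted p = 0.00529) for DNRest, where the Hdh7/7 arrays were all undetected and no fold can be given. The empty-vector call was lost on the 6 arrays whose source name and title give the same genotype (0.76, adjusted p = 0.0686), and the DNRest call without Hdh109/109 DNRest replicate 2 (0.57, adjusted p = 0.0566). Without transfection its difference of 0.22 did not pass (95% interval -0.16 to 0.60, adjusted p = 0.355).

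Glul, which converts glutamate to glutamine, differed between the lines past the test in the untransfected state. Its log2 signals there were 6.08 and 6.22 (Hdh7/7) and 7.13 and 7.01 (Hdh109/109). With empty vector they were 6.34 and 5.28 in Hdh7/7 and 6.10 and 6.36 in Hdh109/109 cells, and with DNRest 5.94 and 5.85 against 5.92 and 6.16. The lines overlapped in both transfected states. The untransfected difference was 1.89-fold (log2 0.92 ± 0.28, adjusted p = 0.0284), and it did not pass with any 1 of the 4 untransfected arrays left out (adjusted p = 0.0829 to 0.128) or without the detection filter (adjusted p = 0.0791). The differences with empty vector (0.42, 95% interval -0.21 to 1.04, adjusted p = 0.251) and DNRest (0.14, -0.48 to 0.77, adjusted p = 0.725) did not pass, and the test of a change of the line difference with the empty vector did not pass either (-0.50 ± 0.40, adjusted p = 0.422).

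Apoe, the lipid carrier of astrocytes, was undetected on all 6 Hdh7/7 arrays and detected on 5 of 6 Hdh109/109 arrays. The Hdh7/7 arrays read 5.15 and 5.15 untransfected, 4.88 and 4.70 for the empty vector, and 4.97 and 4.60 for DNRest on the log2 scale. The Hdh109/109 arrays of these states read 6.05 and 5.77, 6.86 and 6.82, and 6.64 and 7.02. The lines did not overlap, and within Hdh109/109 cells the untransfected arrays were the lowest. Where the dimmer group was undetected, a fold is given as a lower bound, the bright group's mean set against the lowest signal detected on each dim array. On this scale Apoe was at least 1.03-fold higher in untransfected Hdh109/109 cells (log2 difference 0.76 ± 0.18, adjusted p = 0.00831), at least 1.39-fold with empty vector (2.05 ± 0.18, adjusted p = 1.42e-05) and at least 1.69-fold with DNRest (2.05 ± 0.18, adjusted p = 1.63e-05). The untransfected call was lost without background correction (0.37, adjusted p = 0.0509) and without Hdh109/109 untransfected replicate 1 (0.60, adjusted p = 0.0703).

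Nes, the intermediate filament protein nestin of neural stem cells and radial glia, was detected on all 12 arrays and was lower in Hdh109/109 cells in every state. Probe 1 gave 8.45 and 8.75, 9.01 and 8.96, and 8.93 and 8.91 in untransfected, empty-vector and DNRest Hdh7/7 cells. The same states in Hdh109/109 cells gave 7.45 and 7.20, 7.35 and 6.95, and 7.04 and 7.45. The lowest Hdh7/7 array lay above the highest Hdh109/109 array. The difference was 2.42-fold untransfected (log2 -1.27 ± 0.19, adjusted p = 0.000624), 3.57-fold with empty vector (-1.84 ± 0.19, adjusted p = 4.95e-05) and 3.20-fold with DNRest (-1.68 ± 0.19, adjusted p = 9.97e-05). Vimentin, its filament partner, was left out by the detection filter, and without that filter its average line difference of -0.43 ± 0.14 did not pass (adjusted p = 0.0546).

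Prom1, the surface glycoprotein CD133 of neural progenitors and ependymal cells, was detected by probe 2 on both untransfected Hdh7/7 arrays and on no other array. Its log2 signals there were 6.76 and 6.80, against 4.57 and 4.62 in untransfected Hdh109/109 cells. The other 8 arrays gave 5.12 and 4.99 (Hdh7/7 empty vector), 5.32 and 5.25 (Hdh7/7 DNRest), 4.52 and 4.64 (Hdh109/109 empty vector) and 4.61 and 4.57 (Hdh109/109 DNRest). Prom1 was at least 1.75-fold lower in untransfected Hdh109/109 cells (log2 difference -2.18 ± 0.12, adjusted p = 5.32e-07). With empty vector (-0.47 ± 0.12, adjusted p = 0.00993) and DNRest (-0.70 ± 0.12, adjusted p = 0.00141) the probe was undetected in both lines, so no fold is given. Neither of these calls held under median scaling (adjusted p = 0.24 and 0.143), and the empty-vector call was also lost with an offset of 50 (0.134), on the compared groups alone (0.13), on the 6 arrays whose source name and title give the same genotype (0.0761) and without Hdh7/7 empty vector replicate 1 (0.0512). The other 3 Prom1 probes showed no such pattern and were undetected throughout, so the Prom1 result rests on 1 probe and 2 arrays.

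**Figure D2:**
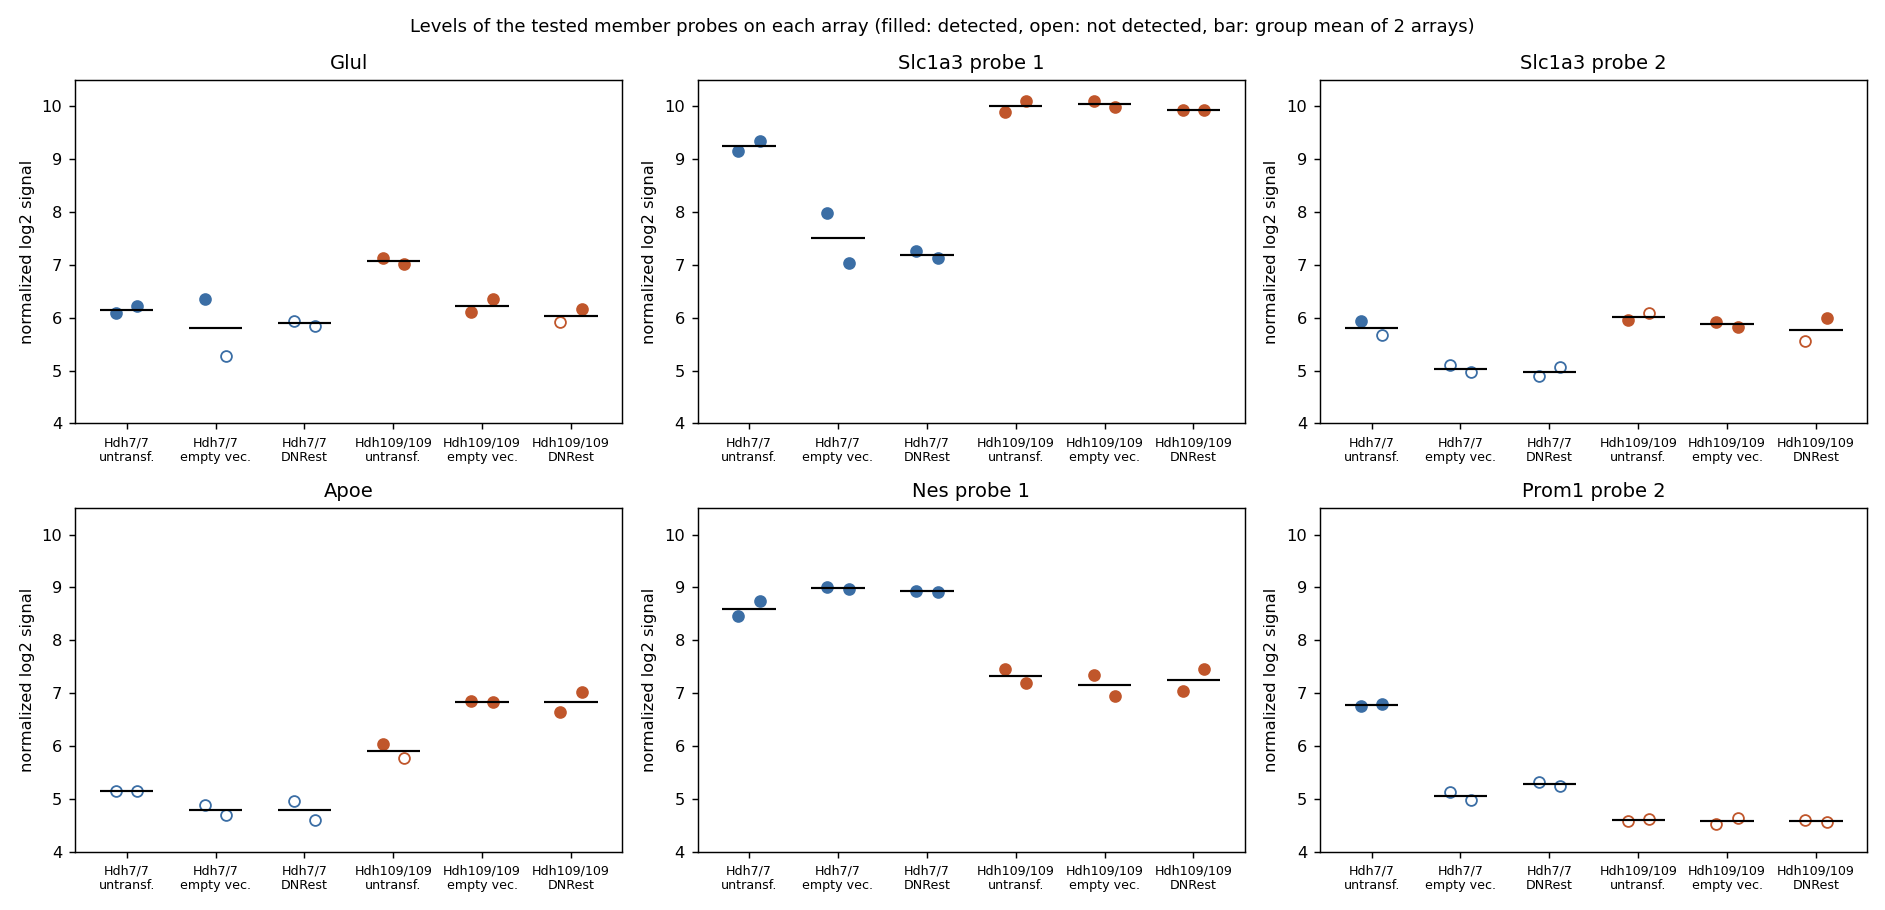
Normalized log2 signal of each tested probe (y axis) in the 6 groups (x axis), 1 point per array, filled where detected, with a bar at the mean of the 2 arrays. Slc1a3 probe 1 and Apoe sit higher and Nes probe 1 lower on all 6 Hdh109/109 arrays (orange) than on the 6 Hdh7/7 arrays (blue), and Prom1 probe 2 stands out on the 2 untransfected Hdh7/7 arrays.

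With empty vector 5 of the 6 probes passed between the lines, where 43.2% of all tested probes passed (22.9% higher, 20.3% lower), and with DNRest 5 passed, where 36.8% did (18.2% higher, 18.6% lower). Averaged over the 3 states all 6 passed, at a background of 57.7%, with 29.5% of probes higher and 28.2% lower. These counts are not read against those shares. Apoe and Prom1 probe 2 were tested because of the group in which they were high, and Slc1a3 gave 2 of the probes. The average log2 difference was 2.01 ± 0.15 for Slc1a3 probe 1 (4.02-fold, adjusted p = 1.6e-06) and 0.61 ± 0.10 for probe 2 (adjusted p = 0.000427). For Apoe it was 1.62 ± 0.10 (adjusted p = 5.69e-07) and for Glul 0.49 ± 0.16 (adjusted p = 0.0243). It was -1.60 ± 0.11 for Nes (3.02-fold, adjusted p = 1.05e-06) and -1.12 ± 0.07 for Prom1 probe 2 (adjusted p = 4.29e-07). The Glul average did not pass without the detection filter (adjusted p = 0.0672) or with any 1 of 5 arrays left out, namely Hdh7/7 untransfected replicate 1, Hdh7/7 DNRest replicate 2, Hdh109/109 untransfected replicate 1, Hdh109/109 empty vector replicate 2 and Hdh109/109 DNRest replicate 2 (adjusted p = 0.0527 to 0.0622). Without Hdh7/7 empty vector replicate 2 it was 0.32 (adjusted p = 0.0143). The arrays of the lines overlapped for Glul and for Slc1a3 probe 2 and not for the other 4 probes. Prom1 probe 2 was detected on the 2 untransfected Hdh7/7 arrays alone. Its average and the separation of its arrays thus rest mostly on undetected signals, and no fold is given. Over the whole array 27% of tested probes did not overlap between the lines, and the median difference of all tested probes was 0.0046.

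The next comparison was of empty-vector with untransfected cells, since the empty vector is the control for DNRest. It holds the vector, the transfection and any difference in culture together, and these cannot be told apart. In Hdh7/7 cells Slc1a3 and Prom1 fell with the empty vector. Of the 6 probes 3 passed, all lower, where 15.7% of all tested probes passed, 6.17% higher and 9.5% lower. The members' count is not read against that share. Prom1 probe 2 was tested because of the untransfected Hdh7/7 arrays on which it was high, and the other calls are both probes of Slc1a3. Slc1a3 probe 1 fell from 9.24 ± 0.14 to 7.51 ± 0.68 (SD, n = 2), which was 3.34-fold (log2 -1.74 ± 0.25, adjusted p = 0.00274), with its 2 empty-vector arrays at 7.99 and 7.02 far apart. Without replicate 2, which had the high raw background, the change was -1.25 (adjusted p = 0.00436), and without replicate 1 it was -2.21 (adjusted p = 0.000115). Slc1a3 probe 2 fell by 0.76 on the log2 scale (adjusted p = 0.0162), into the undetected range. That call was lost with median scaling (adjusted p = 0.058), without Hdh7/7 untransfected replicate 1 (-0.62, adjusted p = 0.119), without Hdh7/7 empty vector replicate 2 (adjusted p = 0.0766) and without both arrays of high raw background (adjusted p = 0.0879). Prom1 probe 2 fell from 6.78 ± 0.02 to 5.05 ± 0.10, at least 1.34-fold (-1.72 ± 0.12, adjusted p = 0.000114). Nes (0.39, 95% interval -0.04 to 0.81, adjusted p = 0.195), Glul (-0.34, -0.97 to 0.28, adjusted p = 0.427) and Apoe (-0.35, adjusted p = 0.205, undetected in both groups) did not pass. Fitted on the 4 compared arrays alone, these calls did not pass, with adjusted p-values of 0.094 for Slc1a3 probe 1, 0.103 for probe 2 and 0.0755 for Prom1 probe 2.

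In Hdh109/109 cells the empty-vector arrays had a higher Apoe signal. Apoe rose from 5.91 ± 0.19 to 6.84 ± 0.02 (SD, n = 2), a 1.91-fold difference (log2 0.93 ± 0.18, adjusted p = 0.0236), and it was the 1 member probe to pass where 2.92% of all tested probes did, 1.96% higher and 0.959% lower. This call did not hold with any 1 of the 4 compared arrays left out (adjusted p = 0.0502 to 0.149), on those 4 arrays alone (0.0572), or without both arrays of high raw background (0.0973). Slc1a3 probe 1 was 10.00 ± 0.15 without and 10.04 ± 0.07 with the vector (difference 0.05, 95% interval -0.52 to 0.61, adjusted p = 0.944). Glul was 7.07 ± 0.08 without and 6.23 ± 0.18 with the vector, with no overlap of the arrays, yet its difference of -0.84 (-1.47 to -0.22) did not pass (adjusted p = 0.147). With either Hdh7/7 empty-vector array left out of the fit, Glul passed together with Apoe. Nes (-0.18, adjusted p = 0.66) and Prom1 probe 2 (-0.02, adjusted p = 0.956, undetected in both groups) did not pass.

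The difference between the lines in this vector response was tested directly, and it passed for Slc1a3 probe 1, Apoe and Prom1 probe 2. Over the whole array 12% of tested probes passed, 7.13% higher and 4.91% lower, but the members' count is not read against that share, since Apoe and Prom1 probe 2 were tested because of the group in which they were high. The response of Slc1a3 probe 1 was higher in Hdh109/109 than in Hdh7/7 cells by 1.78 ± 0.36 on the log2 scale (adjusted p = 0.014), that of Apoe by 1.29 ± 0.25 (adjusted p = 0.0129) and that of Prom1 probe 2 by 1.71 ± 0.17 (adjusted p = 0.000402). Prom1 probe 2 was undetected in Hdh109/109 cells with and without the vector, so a fall there could not have been seen. Apoe was likewise undetected in Hdh7/7 cells with and without the vector, so the sizes of its Hdh7/7 response and of this difference rest on signals not above background. Slc1a3 probe 2 (0.62 ± 0.24, adjusted p = 0.124), Nes (-0.56 ± 0.27, adjusted p = 0.195) and Glul did not pass. These differences share arrays with the line differences above and are not independent of them.

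DNRest against empty vector changed no member past the test in either line. In Hdh7/7 cells 0 of the 6 probes passed (limma, adjusted p = 0.757 to 0.994), where 0.0985% of all tested probes passed, 15 in number, and 1081 had an unadjusted p under 0.05. Slc1a3 probe 1 differed by -0.31 (95% interval -0.88 to 0.25), Nes by -0.06 (-0.49 to 0.36), Apoe by -0.01 (-0.41 to 0.39), Glul by 0.08 (-0.54 to 0.71) and Prom1 probe 2 by 0.23 (-0.04 to 0.50). In Hdh109/109 cells 0 passed (adjusted p = 0.817 to 0.989), where 0.138% of all tested probes passed, 21 in number, and 1762 had an unadjusted p under 0.05. There Slc1a3 probe 1 differed by -0.12 (-0.69 to 0.45), Nes by 0.09 (-0.33 to 0.52), Apoe by -0.01 (-0.41 to 0.39) and Glul by -0.19 (-0.82 to 0.43). These intervals leave room for changes of the sizes they span and do not show that DNRest was without effect. The difference between the lines in the DNRest response passed for 0 of the 6 probes (adjusted p = 0.719 to 0.998), where 0% of all tested probes passed and 1247 had an unadjusted p under 0.05.

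**Figure D3:**
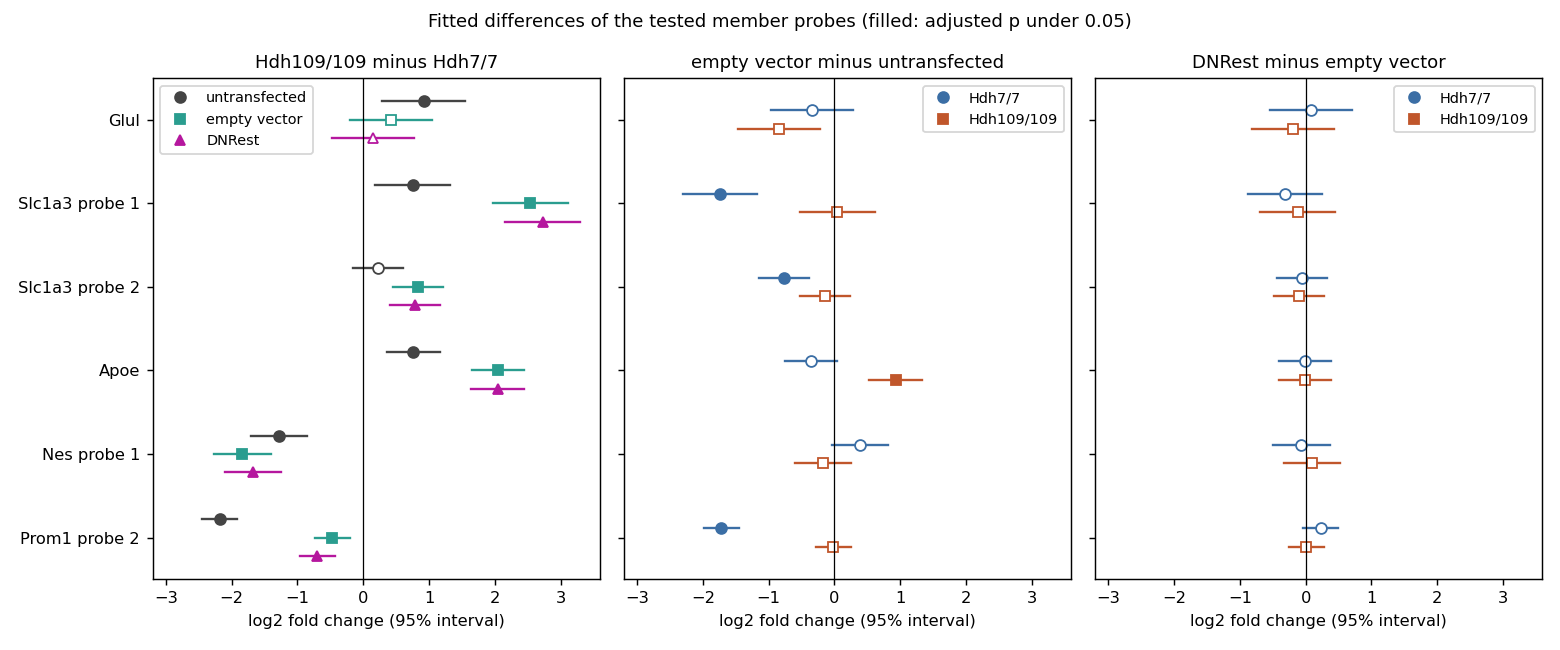
Fitted log2 fold changes of the 6 tested probes (rows) with 95% intervals, for Hdh109/109 minus Hdh7/7 (left), empty vector minus untransfected (middle) and DNRest minus empty vector (right), filled where the adjusted p is under 0.05. The left panel shows Slc1a3, Apoe and Glul above 0 and Nes and Prom1 below, the middle panel shows Slc1a3 and Prom1 probe 2 falling in Hdh7/7 cells and Apoe rising in Hdh109/109 cells, and no point in the right panel is filled.

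Genes that share the members' roles were counted in the average line difference, 1 probe per gene, where 29.5% of all tested probes were higher and 28.2% lower. The lists were chosen with earlier results of these data known, so their counts are a description and not separate support for the members. Other radial glial and neural stem cell genes went mostly the way of Nes and Prom1: of 27 genes 17 were tested, 12 were lower in Hdh109/109 cells and 2 higher, with a median of -0.89 (the same with undetected groups at their bound) against 0.0046 over all probes. Sox2, a transcription factor of neural stem cells, was at least 23.4-fold lower (adjusted p = 5.37e-11), Pax6, a radial glial transcription factor, at least 16.9-fold lower (adjusted p = 1.5e-08), and Id4, an inhibitor of differentiation, at least 15.6-fold lower (adjusted p = 1.91e-10). Sox2, Pax6 and Id4 were undetected on all Hdh109/109 arrays, so they were tested because of the line in which they were high. Hes1, a Notch target that holds progenitors back from differentiation, was lower too (log2 -2.29 ± 0.12, adjusted p = 1.69e-07). Without transfection 12 of the 17 were lower and 0 higher, where 18% of all tested probes were lower and 17.6% higher, with a median of -0.92 (-0.66 at the bounds).

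Other astrocyte genes had no common direction, with 13 of 34 tested, 4 higher and 5 lower, not far from the shares over all probes, and a median of 0.03. Ndrg2, a cytoplasmic protein abundant in astrocytes, was higher by 2.05 ± 0.16 (adjusted p = 3.09e-06). Plpp3, a lipid phosphatase, was lower (-1.77 ± 0.08, adjusted p = 5.7e-08), as was Nfib, a gliogenic transcription factor (-1.77 ± 0.09, adjusted p = 1.04e-07). Mt3, a brain metallothionein, was at least 2.12-fold lower (adjusted p = 3.39e-07). Mt3 was undetected on all arrays of the line with lower signal. It was thus tested because of the line in which it was high. Genes that handle glutamate and glutamine, 12 of 24 tested, had 5 higher and 3 lower, with a median of 0.28. Among them were Gpt2, the mitochondrial alanine transaminase (0.93 ± 0.08, adjusted p = 5.75e-06), Slc1a4, a neutral amino acid transporter of the same family as Slc1a3 (0.58 ± 0.08, adjusted p = 0.000116), Glud1, glutamate dehydrogenase (0.46 ± 0.10, adjusted p = 0.0032) and Ctps, which uses glutamine to make CTP (-0.73 ± 0.10, adjusted p = 0.000106). In untransfected cells this glutamate list had 4 higher and 0 lower (17.6% and 18% over all tested probes). Ctps was thus not called lower in that state.

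Apolipoprotein E receptors, transporters and partners, 11 of 21 tested, had 4 higher and 5 lower, with a median of -0.10. Abcg1, a cholesterol exporter, was higher by 1.13 ± 0.13 (adjusted p = 5.59e-05). The sorting receptors Sort1 (-1.11 ± 0.08, adjusted p = 1.06e-06) and Sorl1 (at least 2.45-fold, adjusted p = 1.64e-08) and the lipoprotein Clu (at least 2.28-fold, adjusted p = 3.54e-06) were lower, opposite in direction to Apoe. Sorl1 and Clu were undetected on all arrays of the line with lower signal. They were thus tested because of the line in which they were high, and Apoe because of the other line. The opposite directions of Sorl1, Clu and Apoe are therefore not read as a contrast. In untransfected cells this apolipoprotein E list had 0 higher and 5 lower (17.6% and 18% over all tested probes). Abcg1 was thus not called higher in that state. With empty vector the list had 5 higher and 5 lower (22.9% and 20.3% over all tested probes). Intermediate filament partners, 8 of 17 tested, had 1 higher and 4 lower on average, with a median of -0.21. Eppk1, a plakin that binds intermediate filaments, was higher by 1.21 ± 0.10 (adjusted p = 3.63e-06), and Synm, a filament protein that assembles with vimentin, was lower (-0.45 ± 0.14, adjusted p = 0.0206), as were Lmna, the nuclear lamin A/C (-0.42 ± 0.09, adjusted p = 0.00179), and Ywhaz, a 14-3-3 protein (-0.65 ± 0.13, adjusted p = 0.00157). Genes induced in reactive astrocytes, 12 of 24 tested, had 5 higher and 5 lower, with a median of 0.08. Cxcl10, an interferon-induced chemokine (4.94 ± 0.17, adjusted p = 4.84e-09), Osmr, the oncostatin M receptor (3.40 ± 0.14, adjusted p = 2.15e-08) and Stat3 (1.32 ± 0.11, adjusted p = 4.22e-06) were higher, and the adhesion molecule Vcam1 was lower (-2.17 ± 0.07, adjusted p = 3.93e-09).

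**Figure D4:**
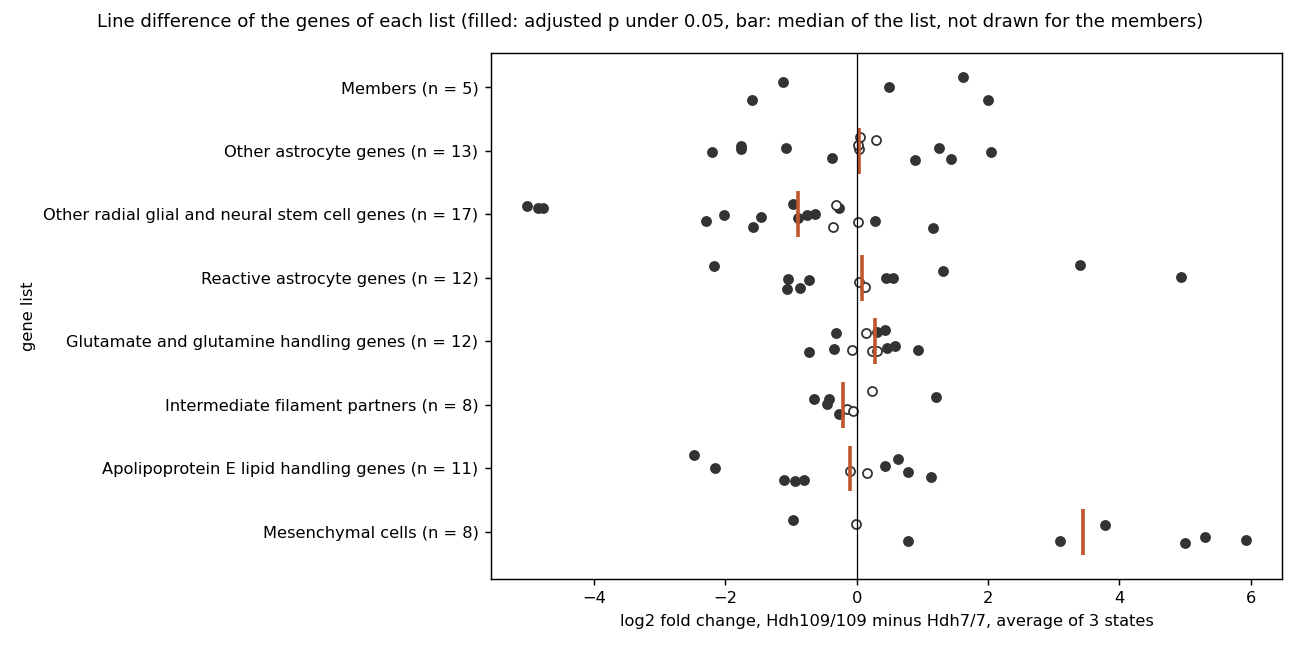
Average log2 fold change, Hdh109/109 minus Hdh7/7 (x axis), of each tested gene (points, filled where the adjusted p is under 0.05) in the lists on the y axis. A bar marks the list's median and is not drawn for the members. Other radial glial and neural stem cell genes lie mostly below 0 (median -0.89), mesenchymal markers mostly above (median 3.44), and the remaining lists lie on both sides.

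The mesenchymal markers are described for the same average difference. Of 10 such markers 8 were tested, 6 higher and 1 lower in Hdh109/109 cells (29.5% and 28.2% over all tested probes), with a median of 3.44 (2.86 with undetected groups at their bound). The summed linear level of the list was 8510.5 to 11938.9 over the Hdh7/7 arrays and 23585.2 to 27279.7 over the Hdh109/109 arrays. Pdgfra, the platelet-derived growth factor receptor alpha, was at least 39.3-fold higher (adjusted p = 4.48e-11), and the fibrillar collagen genes Col3a1 (5.30 ± 0.17, adjusted p = 2.68e-09) and Col1a2 (at least 12.1-fold, adjusted p = 9.41e-11) and the proteoglycan Dcn (at least 6.14-fold, adjusted p = 1.56e-09) were higher too. Pdgfra, Col1a2 and Dcn were undetected on all Hdh7/7 arrays, so they were tested because of the line in which they were high. The tubulin Tubb3 and the microtubule protein Map2 of neurons were lower (-0.45 ± 0.16, adjusted p = 0.0381, and -0.77 ± 0.12, adjusted p = 0.000293), as were the ciliary protein Rsph1 of ependymal cells (-2.60 ± 0.14, adjusted p = 1.47e-07) and the endothelial receptor Flt1 (-0.51 ± 0.07, adjusted p = 0.00019). Both tested oligodendrocyte lineage markers did not pass, and the microglial markers were undetected on all arrays.

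The genes most like each tested member over the 12 arrays are given as a description, since the arrays fall into 2 lines and any gene that differs between them correlates. For Slc1a3 probe 1 these were Medag (Pearson r = 0.986) and Gipc2 (0.982), for Nes Nrp2 (0.994) and Slc35d1 (0.990), and for Apoe Shisa5 (0.989) and Icam1 (0.987). For Prom1 they were Cdh22 (0.991) and Trp63 (0.988), and for Glul Ptch1 (0.932) and Dnajc15 (0.924).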

How the data were processed

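Per the file headers, the deposited unnormalized table gives the bead signal (linear intensity) and a detection p-value of every probe on every array. The sources used here do not give the scanner software or the authors' own steps, beyond limma in the submitters' processing notes. The deposited series matrix was not used, because its values did not follow its probe identifiers. Signals were background-corrected from the detection p-values (limma 3.58.1, R 4.3.3, nec, offset 16), quantile normalized and taken as log2. A probe was tested if at least 2 of the 12 arrays had a detection p under 0.01, which left 15224 of 44505. Group means were fitted jointly on the 12 arrays (limma with eBayes, 6 residual degrees of freedom). Tests were two-sided, Benjamini-Hochberg adjustment ran over the tested probes, and calls were made at an adjusted p under 0.05. The number of arrays limits the precision. The fit was tested on simulated data. Gene names came from the platform annotation, where 28471 probes had 1 symbol, 10 several and 16024 none, and 0 symbols changed against RefSeq. Genes of the lists were represented by the tested probe with the highest mean level, which gave 8487 genes. From each list up to 4 called genes of largest average difference were named, and for each tested member the 2 genes of highest Pearson r. Samples were grouped by title. Same-numbered arrays did not deviate together in a consistent way (correlations of -0.44 to 0.36 over 15 group pairs, 2 above 0.1). Replicate numbers were therefore not used as pairs. The members and lists were chosen with earlier results of these data known. Alternatives changed the normalization, background correction, offset, filter, unit tested, arrays fitted and replicate block, or left out each array.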

Additional observations from a re-analysis of the deposited data

Results flagged for a closer look

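The response to the empty vector differed between the lines, by the direct test of that difference, for Slc1a3 probe 1, Apoe and Prom1 probe 2. For Slc1a3 probe 1 the response was higher in Hdh109/109 than in Hdh7/7 cells by 1.78 on the log2 scale (limma, adjusted p = 0.014), being -1.74 in Hdh7/7 and 0.05 in Hdh109/109 cells. Without both arrays of high raw background it was 1.40 (adjusted p = 0.0155), and it did not pass on the 8 arrays compared alone (adjusted p = 0.0517) or without Hdh7/7 untransfected replicate 2 (1.68, adjusted p = 0.0514). For Apoe the difference was 1.29 (adjusted p = 0.0129), from -0.35 in Hdh7/7 cells, where the probe was undetected on all arrays and the value is not a measured change, and 0.93 in Hdh109/109 cells. It did not pass without both high-background arrays (1.08, adjusted p = 0.0762) or without Hdh7/7 untransfected replicate 1 (adjusted p = 0.0524). For Prom1 probe 2 it was 1.71 (adjusted p = 0.000402), from -1.72 and -0.02, with the probe detected on both untransfected Hdh7/7 arrays and on no other.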

How the results depend on the processing

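Of 553 values of single member probes under alternatives, over 28 called results, 502 stayed past the threshold in the same direction, 51 fell short of it and 0 reversed. Calls whose probe was no longer tested under an alternative are not among the 553, so this count leaves out calls lost in that way. Among probes detected on all 12 arrays, which keeps Slc1a3 probe 1 and Nes probe 1, the line differences gave 2 in each of the 3 states and 2 on average (against 5, 5, 5 and 6), the vector effect 1 in Hdh7/7 and 0 in Hdh109/109 cells, and its difference between lines 1. On the compared groups alone the vector effect gave 0 in both lines, against 3 and 1. On the 6 arrays whose source name and title give the same genotype, the empty-vector line difference gave 3 probes (Slc1a3 probe 1, Apoe and Nes probe 1). Leaving out each array gave 2 to 5 calls untransfected, 4 to 5 with empty vector, 4 to 5 with DNRest, 4 to 6 on average, 1 to 4 for the vector in Hdh7/7, 0 to 2 in Hdh109/109, 1 to 4 for its difference between lines, and 0 to 0 for DNRest in each line and for its difference; Prom1 probe 2 leaves the filter without either untransfected Hdh7/7 array. The replicate block cost the untransfected Slc1a3 probe 1 call (0.75, adjusted p = 0.0512) and changed no other call. Leaving out both high-background arrays was chosen after seeing the data and gave 2 calls for the vector in Hdh7/7 and 1, Glul in place of Apoe, in Hdh109/109 cells. Under median scaling the median of all tested probes was 0.62 for the empty-vector line difference, against 0.0365 in the main fit. It was -0.45 against -0.0366 for the vector effect in Hdh7/7, and 0.63 against 0.0611 for its difference between lines. For these 3 comparisons Slc1a3 probe 1 gave 3.20, -2.32 and 2.51 under median scaling. Without the filter Slc1a2 probe 1, undetected on every array, passed untransfected (-0.61, adjusted p = 0.0149), for the vector in Hdh7/7 (-0.56, adjusted p = 0.0452) and for its difference between lines (0.95, adjusted p = 0.0295). The cause of these changes was not tested. Without background correction the average log2 line difference was smaller for Apoe (0.89), Slc1a3 probe 2 (0.31) and Glul (0.27), and an offset of 50 gave 0.99 for Apoe, 0.35 for Slc1a3 probe 2 and -0.62 for Prom1 probe 2. Signal over background limits Glul, Apoe, Prom1 and Slc1a3 probe 2, and the 11 probes undetected on all 12 arrays give only upper limits.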

Other observations

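Genes around the members also differed between empty-vector and untransfected cells, a comparison that holds vector, transfection and culture together. In Hdh7/7 cells it includes empty vector replicate 2, which had the high raw background. In Hdh7/7 cells 6 of the 11 tested apolipoprotein E receptors, transporters and partners fell and 0 rose (median -0.98), where 9.5% of all tested probes fell and 6.17% rose. Sorl1 fell by 1.57 on the log2 scale (limma, adjusted p = 0.00086), Sort1 by 1.15 (adjusted p = 0.00107), Abcg1 by 1.31 (adjusted p = 0.00631) and Clu by 1.26 (adjusted p = 0.0217). Abca1, the cholesterol exporter that loads apolipoprotein E, was at least 1.46-fold lower (adjusted p = 0.00963), and the lipoprotein receptor Vldlr fell by 0.98 (adjusted p = 0.00995); both were chosen after their values were seen. Of these named genes only Sort1 and Vldlr were detected on both Hdh7/7 empty-vector arrays, so the falls of the others reach close to the limit of detection. These calls were not refitted on the compared groups alone or with arrays left out. In the same Hdh7/7 cells 5 of 17 other radial glial and neural stem cell genes fell and 0 rose. Of the reactive astrocyte genes 4 of 12 fell and 0 rose.

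In Hdh109/109 cells the vector went with a 32.6-fold rise of Cxcl10 (log2 5.03 ± 0.29 SE, limma, adjusted p = 1.19e-05) and a 2.85-fold rise of Vcam1 (1.51 ± 0.12, adjusted p = 9.94e-05), beside the rise of Apoe. The remaining 10 tested reactive astrocyte genes did not pass there, where 1.96% of all tested probes rose. DNRest against empty vector gave 0 called genes in every list and in both lines.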
